A study of Ovis aries with 60 samples.

Results

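CNTNAP2, DLG2, CTNNA3, CDH12, STK32B and CAP2 are 6 genes that the study linked to cytosines of its transgenerational epigenetic inheritance (TEI) list or to traits, and 5 of them hold such a cytosine in their span. They were taken by name from the gene count table of semen RNA from 20 F2 rams, where all 6 were present among 28525 genes. All 6 were among the 13577 genes that had at least 15 reads in more than 10 rams. The study asked whether methionine given to rams leaves a methylation signature in sperm of later generations. For these genes the comparisons concern their RNA level in semen, its variation over rams and between diet lines, and then the methylation of the same genes.

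CNTNAP2 encodes CASPR2, a neurexin-family adhesion protein that, with contactin 2, gathers voltage-gated potassium channels beside the nodes of myelinated axons. DLG2 encodes PSD-93, a scaffold of the postsynaptic density that anchors glutamate receptors and potassium channels. CDH12 is a classical cadherin of brain, CTNNA3 is alpha-T-catenin, which ties cadherin complexes to actin in heart and testis, CAP2 is a cyclase-associated protein that helps turn over actin filaments, and STK32B is a serine/threonine kinase of the YANK family.

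In the F0 generation, male Polypay twins were split, so that 1 received a control diet and the other the same diet with encapsulated methionine (0.22%, 1.5 g) from weaning to puberty. Both diet lines were bred to untreated Polypay ewes, and F1 and F2 animals of both lines ate the control diet. The methionine line held 10 F2 rams and the control line held 10, with 2 rams from each of 10 F0 sires, and the labels' breeding scheme gives 1 F1 ram for each F0 sire, so the 2 rams are paternal relatives and not independent. The same rams gave bisulfite-sequenced sperm DNA, as did 10 F0 rams and 10 F1 pools, 5 for each diet line. An F1 pool is semen of several rams sequenced as 1 library, so its level is a mean over animals.

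The RNA libraries held from 805831 to 13137757 counted reads (median 3436936). They are labelled sperm and were washed in somatic cell lysis buffer, but they differed widely in composition. Counts were put on a scale of CPM, read counts scaled to library size, with TMM factors, which ranged from 0.371 to 2.38 over the rams. Summed over each marker list, spermatid genes ranged from 164 to 4996 TMM CPM, leukocyte genes from 107 to 56388 and squamous epithelium genes from 104 to 22927. Of these lists, 13 of 15 spermatid, 13 of 14 leukocyte and 10 of 15 squamous genes were measured, none of them at 0 in all rams. Rams SpermRNA382T (methionine) and SpermRNA485C (control) stood apart, with leukocyte sums of 179 and 107 TMM CPM against 2726 or more in the other 18 rams. Whether fewer cells of a type or less RNA per cell set any level below cannot be told apart in these libraries.

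All 6 genes were read at low depth. CNTNAP2 had between 8 and 84 reads per ram, DLG2 between 6 and 84, CTNNA3 between 19 and 166, CDH12 between 9 and 86, STK32B between 4 and 74 and CAP2 between 3 and 62. A level that rests on 3 or 4 reads carries a large counting error.

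CNTNAP2 ranged in the control line from 2.55 TMM CPM to 19.3, with a median of 10.2. In the methionine line it ranged from 1.63 to 15.5 TMM CPM with a median of 11.5. The lines overlapped over nearly their whole range, with ram SpermRNA372T lowest and ram SpermRNA413C highest. The fitted difference, methionine minus control, was 0.05 on the log2 scale (SE 0.35, p = 0.896).

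DLG2 ranged from 2.35 to 28.2 TMM CPM in the control line, with a median of 10.2. The methionine line spanned 1.22 to 16.5 TMM CPM around a median of 8.06. The lowest and the highest ram were the same as for CNTNAP2, and the lines overlapped. The log2 difference was -0.34 (SE 0.40, p = 0.406).

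CTNNA3 ranged from 4.31 to 31.4 TMM CPM in the control line (median 13.6). In the methionine line its levels ran from 4.27 to 38.1 TMM CPM (median 12.8). Rams SpermRNA382T and SpermRNA485C, which had the 2 lowest leukocyte sums, gave the 2 highest levels, 1 in each line. The log2 difference was -0.00071 (SE 0.37, p = 0.999).

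CDH12 lay between 3.91 and 14.1 TMM CPM in the control line, with a median of 6.73. In the methionine line it lay between 1.35 and 17.3 TMM CPM, with a median of 5.36. The methionine line held both the lowest ram, SpermRNA320T, and the highest, SpermRNA382T, and enclosed the control line. The log2 difference was -0.13 (SE 0.39, p = 0.735).

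STK32B spanned 1.18 to 17 TMM CPM in the control line (median 5.55) and 1.42 to 14.9 TMM CPM in the methionine line (median 3.95). Ram SpermRNA400C was lowest, ram SpermRNA485C highest, and the ranges overlapped almost fully. The log2 difference was -0.29 (SE 0.43, p = 0.510).

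CAP2 spanned 1.18 to 13.1 TMM CPM in the control line (median 7.30) and 0.610 to 13.6 TMM CPM in the methionine line (median 8.30). Ram SpermRNA372T was lowest, on 3 reads, and ram SpermRNA500T highest, and again the lines overlapped. The log2 difference was 0.12 (SE 0.41, p = 0.774).

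**Figure D1:**
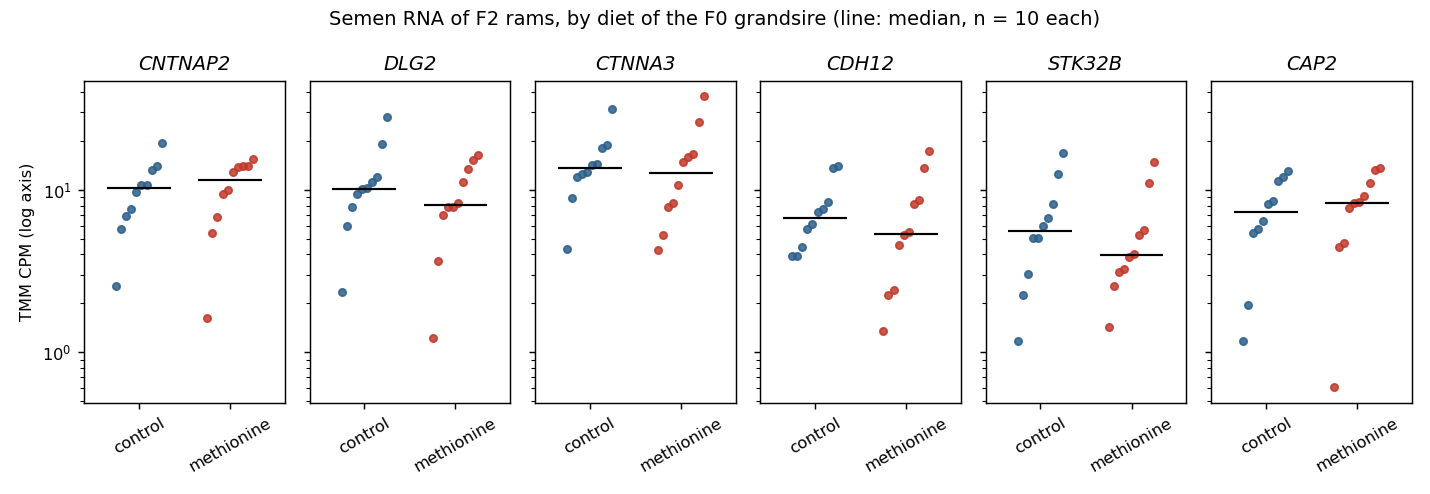
TMM CPM of the 6 genes on a log axis, 1 point per F2 ram, by diet line of the F0 grandsire, with a line at the median of 10 rams. The 2 lines overlap for every gene, and the medians differ by less than the spread between rams.

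By edgeR's quasi-likelihood test with Benjamini-Hochberg adjustment, 0 of the 6 genes were called by diet, with an adjusted p of 1.00 for each. The background was also 0.0% of 13577 genes called. At an unadjusted p under 0.05 there were 104 genes, or 0.766%, and none of the 6 was among them. DESeq2 called 0 genes as well, with 174 at an unadjusted p under 0.05. In counts simulated with the same library totals, 89 of 200 genes changed by 4-fold were recovered (160 of the 200 passed the filter). Changes of that size were thus often missed in the simulation. Its genes were drawn at any depth, with counts in proportion to library total, so the rate is not specific to the 6 genes. Nothing in this comparison shows that the lines were alike for these genes.

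Partners and relatives of the 6 genes gave the same count. Of 56 such genes tested in 8 lists, 0 were called in either direction by edgeR and 0 had an unadjusted p under 0.05, with 18 fitted higher and 38 lower in the methionine line (median log2 difference -0.15, against -0.05 over all genes tested). CNTN1, a contactin of the axonal membrane, had the smallest p of those fitted lower, with means of 8.10 TMM CPM in the methionine line and 14.7 in the control line (p = 0.0601). CTNNA2, the neural alpha-catenin, came next on that side, with 13.8 against 23.7 TMM CPM (p = 0.169). STK32C, the YANK kinase related to STK32B, had the smallest p of those fitted higher, with 30.1 against 17.2 TMM CPM (p = 0.0991). CTNND1, p120-catenin, which holds cadherins at the membrane, followed with 92.9 against 61.1 TMM CPM (p = 0.129). All 4 had an adjusted p of 1.00.

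By list, 0 of 5 neurexin-family genes, 0 of 5 CNTNAP2 partners, 0 of 4 DLG relatives, 0 of 14 postsynaptic partners, 0 of 5 catenins, 0 of 13 classical cadherins, 0 of 2 YANK kinases and 0 of 8 actin turnover genes were called in either direction. All 5 neurexin relatives were fitted lower in the methionine line, with a median log2 difference of -0.21. The 2 other YANK kinases were fitted higher, with a median of 0.45, and STK32B itself was fitted lower. These counts describe lists chosen with results known, and none passed the test.

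The 6 genes rose and fell together from ram to ram. All 15 pairs were positively correlated over the 20 rams on the scale of log2(TMM CPM + 1), with Pearson's r between 0.60 and 0.91 (median 0.77) and Spearman's rho between 0.57 and 0.91. Of all pairs of the genes tested, 13.2% had an r at or over that lowest value. All 15 passed the permutation test with Benjamini-Hochberg adjustment over the pairs, the largest adjusted p being 0.00462 for r and 0.00984 for rho. By r, CNTNAP2 and DLG2 were the closest pair and CNTNAP2 and CDH12 the farthest. By rho, DLG2 and STK32B were the closest pair (0.91), followed by CNTNAP2 and DLG2 (0.87). Without the 2 rams farthest from the median of the first gene, the lowest r of any pair was 0.41. Within the lines, r ran from 0.61 to 0.94 over the methionine rams and from 0.64 to 0.93 over the control rams.

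Some rams kept nearly the same rank over the 6 genes and others did not. Ram SpermRNA372T ranked 19 or 20 for every gene, and its geometric mean over the 6 was 1.6 TMM CPM. Ram SpermRNA382T ranked between 1 and 3 and had a geometric mean of 17.7 TMM CPM. These rams had the same F0 sire, number 9, so the ends of the range were held by 2 paternal relatives. Ram SpermRNA413C ranked between 1 and 4, ram SpermRNA485C between 1 and 9, and ram SpermRNA400C between 16 and 20. Between the ends, ram SpermRNA475C ranked between 5 and 7 and ram SpermRNA453C between 14 and 16. Ram SpermRNA323T, by contrast, ranked between 2 and 17, by gene.

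Rams of the same F0 sire differed about as much as other rams in these levels. For STK32B the median difference between the 2 rams of a sire was 1.01 on the log2(TMM CPM + 1) scale over 10 pairs, against 0.86 over the 180 other pairs. For CDH12 it was 0.76 against 0.79. The remaining 4 genes had medians between 0.62 and 0.92 within sires and between 0.58 and 0.79 across them. No test was run on these medians, since pairs share rams.

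**Figure D2:**
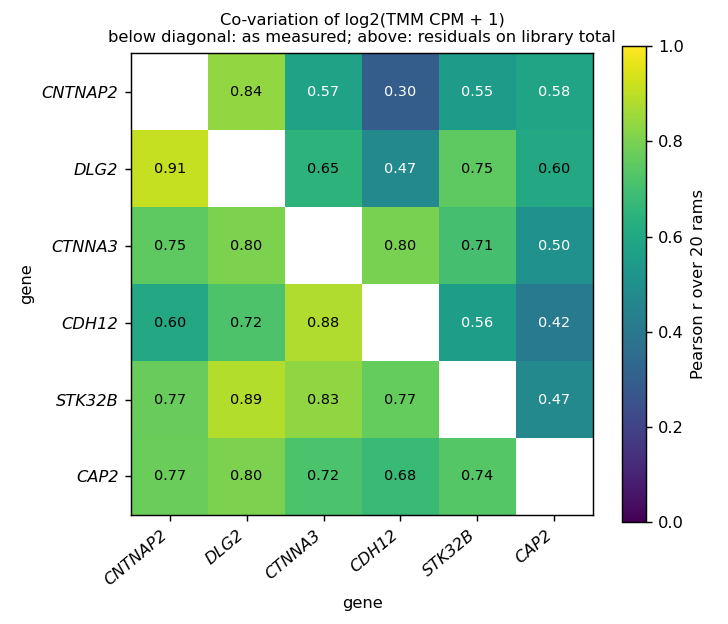
Pearson's r of each pair of the 6 genes over 20 rams, on log2(TMM CPM + 1) below the diagonal and on residuals after regression on log2 library total above it. Below the diagonal r runs from 0.60 to 0.91, and above it from 0.30 to 0.84.

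Part of the shared variation moved with library size. All 6 genes had a lower TMM CPM in larger libraries, with r between -0.74 and -0.63 against log2 library total and rho between -0.77 and -0.65. All 6 passed the permutation test adjusted over the 24 pairs of gene and measure (largest adjusted p 0.00542 for r and 0.00340 for rho). Without the 2 rams farthest from the median library total, r was between -0.70 and -0.61, and it was between -0.74 and -0.56 in the methionine line and between -0.83 and -0.54 in the control line. TMM CPM is divided by library total times the TMM factor, so it shares a term with library total. The factor was 2.38 in the smallest library and 0.371 in the largest. Of all genes tested, 14.1% had a rho with library total at or below that of CTNNA3, the gene of the 6 nearest to 0.

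The raw reads showed the other side of this. Over a 16.3-fold range of library totals, the read counts of the 6 genes hardly followed the total. The slope of log2(count + 1) on log2 library total was -0.011 for CNTNAP2, -0.14 for DLG2, 0.021 for CTNNA3, -0.033 for CDH12, -0.17 for STK32B and -0.15 for CAP2. A gene with the same share of every library would have a slope near 1. The median over all 13577 genes was 0.45, and 5% of them lay below -0.18, so the 6 genes sat low but inside the range of all genes. A slope under 0.5 was found for all 6 and for 53.2% of the genes tested.

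On raw counts, 0 of the 6 genes were called with library total (r between -0.21 and 0.03). The 15 pairs had r between 0.61 and 0.91 on that scale, where 28.0% of all pairs of genes were at or over the lowest value. After regression of TMM CPM on library total, r ran from 0.30 to 0.84, with CNTNAP2 and CDH12 lowest. Of the 15 pairs, 13 passed by r and 11 by rho, in a permutation that took no account of the total regressed out. On these residuals 25.9% of all pairs of genes were at or over that lowest r.

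**Figure D3:**
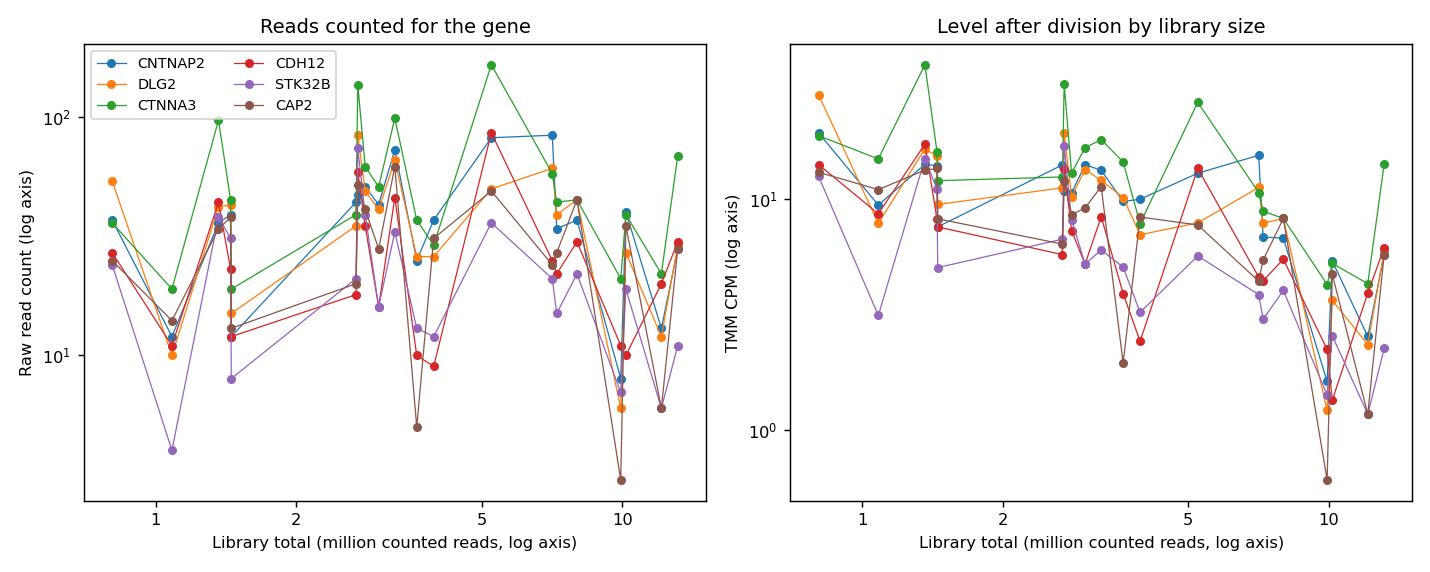
Raw read count (left) and TMM CPM (right) of the 6 genes against library total in 20 rams, all axes log, with thin lines joining the libraries of 1 gene in order of total. Counts do not rise with the total (slopes from -0.17 to 0.021), and the level after division by library size falls.

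Slopes varied within the lists of relatives, many of whose ranges overlapped, and no test was run between lists. The CNTNAP2 partners had a median slope of -0.14 (5 genes), the neurexin family -0.04 (5 genes) and the classical cadherins -0.08 (13 genes), near the median of -0.09 of the 6 genes. Catenins had a median slope of 1.10 (5 genes) and actin turnover genes 1.10 (8 genes). The DLG family (4 genes) and the postsynaptic partners (14 genes) lay between, at 0.40 and 0.10. Among marker lists, median slopes were near or below 0 for stroma (-0.20, 3 genes), spermatid (-0.14, 11 genes), neuron (-0.11, 4 genes) and Sertoli genes (0.03, 3 genes). Single genes differed, with slopes up to 0.30 among spermatid genes and up to 0.82 among Sertoli genes. Medians were above 1 for squamous (1.26, 8 genes, from -0.02 to 1.74) and simple epithelium (1.47, 6 genes, from 0.38 to 1.55). Spermatocyte genes (0.08, 3 genes) and leukocyte genes (0.47, 13 genes) lay between, the latter with slopes from 0.08 to 1.75.

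**Figure D4:**
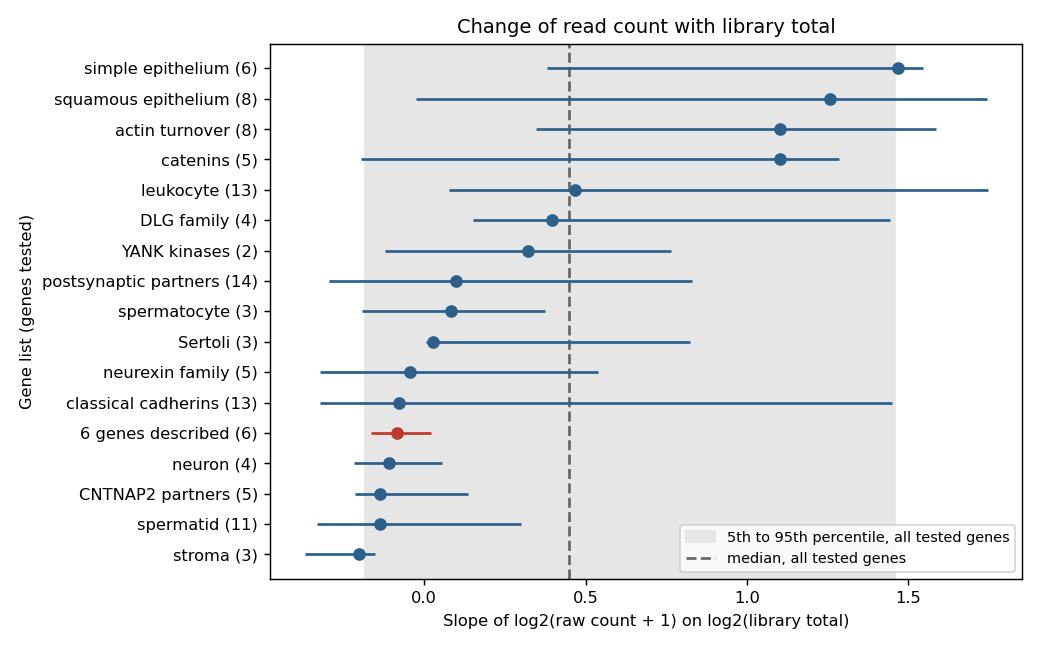
Slope of log2(raw count + 1) on log2 library total over 20 rams, with the median (point) and range (line) of each gene list and the number of genes tested in parentheses. The 6 genes span -0.17 to 0.021, below the median of 0.45 over all tested genes.

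Composition moved with the 6 genes too. Over 20 rams, r with the leukocyte list was between -0.84 and -0.49 (rho between -0.83 and -0.66) and 6 of 6 genes passed, with the largest adjusted p at 0.0323 for r and 0.00276 for rho by permutation. Of all genes tested, 31.7% had an r with that list at least as far below 0 as the weakest of the 6. With the squamous epithelium list r was between -0.84 and -0.46 (rho between -0.79 and -0.44), and 6 of 6 passed by r (largest adjusted p 0.0462 by permutation) and 5 by rho (largest adjusted p 0.0564 by permutation), where 33.3% of all genes had such an r. These shares are large, so the negative relation was common in these libraries.

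Without the 2 rams low in leukocyte markers, r was between -0.79 and -0.61 with the leukocyte list and 6 of 6 passed, and between -0.73 and -0.49 with the squamous list, where 6 passed by r and 4 by rho. On raw counts, 4 of 6 passed with the leukocyte list by r, namely DLG2, CTNNA3, CDH12 and STK32B. Of all genes, 16% had an r at least as far below 0 as the weakest of these 4. By rho 4 also passed, with CAP2 in place of CTNNA3. With the squamous list 3 of 6 passed by r (CTNNA3, CDH12 and STK32B), against 12.4% of all genes at that r. By rho 2 passed with that list, STK32B and CAP2. After regression of each gene on the spermatid, leukocyte and squamous levels together, r between the 6 genes ran from 0.45 to 0.89 (median 0.65), and 11.1% of all pairs of genes tested had an r of at least the lowest of these on the same residuals. All 15 pairs passed by r, with the largest adjusted p at 0.0475 by permutation. By rho 11 passed, the largest adjusted p by permutation being 0.0799 for STK32B and CAP2. The permutation took residuals as free values and ignored the levels regressed out, which makes these p-values too small.

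With the spermatid list 4 of 6 genes passed over 20 rams, and 22.5% of all genes tested had an r at least as high as the weakest of these 4. The values were an r of 0.75 for CDH12 (rho 0.71, adjusted p 0.000400 by permutation), 0.66 for STK32B (rho 0.59), 0.61 for CTNNA3 (rho 0.52) and 0.51 for CAP2 (rho 0.60). DLG2 (r 0.41, rho 0.45, adjusted p 0.0732 by permutation) and CNTNAP2 (r 0.29, rho 0.24, adjusted p 0.213 by permutation) did not pass. Without rams SpermRNA382T and SpermRNA485C, 1 of 6 passed, CDH12, at r 0.65. Whether CDH12 and CNTNAP2 differ in this relation was not tested.

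Neuronal markers summed to between 16.3 and 205 TMM CPM over 6 genes, of which SNAP25 and STMN2 did not pass the count filter. The 6 genes described here summed to between 11.4 and 114 TMM CPM. Stromal markers summed to between 5.29 and 82.5 TMM CPM over 5 genes, of which DCN and LUM did not pass. As a description over 20 rams, rho of the 6 genes was between 0.77 and 0.88 with the neuron sum and between 0.64 and 0.85 with the stroma sum. With the Sertoli sum, which varied least over rams (15.6 to 43.8 TMM CPM), it was between 0.15 and 0.38. Cardiac muscle markers summed to between 2.94 and 28.7 TMM CPM, and none of the 3 present passed the filter. These libraries share their totals, and their part in each rho was not tested. The share of all genes with such a rho was not computed for these lists.

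The genes whose levels were most like each of the 6 were taken by Spearman's rho of TMM CPM over 20 rams, among the 13577 genes tested. The number over a rho of 0.9 that is usual for other genes was not computed, so these counts are a description. STK32B had the most, with 44 genes over a rho of 0.9, led by MYH11, the smooth muscle myosin heavy chain (0.95), PKD1L2 (0.94) and CDH5, the cadherin of blood vessels (0.94). CTNNA3 had 14 such genes, led by GRIA2, an AMPA-type glutamate receptor subunit (0.93), C3H12orf45 (0.93) and CAPS2 (0.92). CDH12 had 16, led by GTSF1, a piRNA pathway protein of germ cells (0.92), WDR78, an axonemal dynein component (0.92), and LRRC69 (0.92).

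CAP2 had 16, led by GDAP1L1 (0.94), DNHD1 (0.92) and ESYT3 (0.92). DLG2 had 8, led by ADAM12, a membrane metalloprotease (0.92), TNFRSF25, a death receptor of lymphocytes (0.92), and ITGA8, an integrin subunit (0.92). CNTNAP2 had 1, HMGCLL1 (0.90), followed by COL5A2, a fibrillar collagen chain (0.89), and AHCYL2 (0.88). The 18 genes had count slopes on library total between -0.24 and 0.09, of which 7 lay outside the range of the 6. They were chosen for likeness on the TMM CPM scale, which is divided by library total times the TMM factor, so their slopes are a description.

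Cytosines of the study's TEI list, called listed below, are given here as levels, by read counts, in the positions of Oar_rambouillet_v1.0. The study chose them for their difference by diet in these samples, so differences by diet at them are a description and no test was run. CNTNAP2 has a CG cytosine in an intron on the plus strand of chromosome 4 at 120492576, in a LINE-1 element. A CG cytosine on the plus strand of chromosome 21 at 11300458 lies in the DLG2 span, in an intron of LOC114110160, also in a LINE-1 element. CTNNA3 has a CHH cytosine (H is A, C or T) on the plus strand of chromosome 25 at 24184141, CDH12 one on the minus strand of chromosome 16 at 56014073 in a BovB element, and STK32B one on the minus strand of chromosome 6 at 114200299 in a LINE element. No listed cytosine fell in the CAP2 span.

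At the CNTNAP2 cytosine the 10 F2 rams of the methionine line ranged from 47.1% to 100% methylated, with a median of 91.9%, on 31 to 73 reads. The control line ranged from 39.1% to 100% with a median of 48.9%, on 14 to 54 reads. The rams fell into 2 groups of levels, 9 between 39.1% and 54.3% and 11 between 75.6% and 100%, and the upper group held 7 of the 10 methionine rams. In F0 the methionine sires ran from 52.8% to 96.3% (median 91.2%) and the control sires from 0.0% to 100% (median 93.2%). The order of the medians in F0 was thus the reverse of that in F2, by a small margin. The F0 means had the order of F2, at 83.6% in methionine sires and 64.1% in control sires. In F1 the medians were 77.2% in methionine pools and 57.9% in control pools. By summed reads the methionine line was higher in F0, F1 and F2, by 24.1, 20.5 and 20.8 points. Control sires 4 and 24 were at 0.0% and 31.7%.

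At the DLG2 cytosine, levels of F2 rams ran from 0.0% to 97.1% in the methionine line (median 50.7%) and from 0.0% to 50% in the control line (median 0.0%). There were 9 rams between 0.0% and 2.7%, 10 between 28.6% and 58.5% and 1 at 97.1%, and the lowest set held 2 methionine rams. In F0, 4 of 5 control sires were at 0.0% and 1, sire 12, was at 74.2%. Of the methionine sires, 2 were also at 0.0%, and the other 3 were at 46.5%, 47.5% and 97.8%.

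The 3 CHH cytosines were far above the usual level of their context. The study's threshold of 20 points by diet needs a line at 20% or more, so this follows from its choice. Over every CHH cytosine in the deposited tables, 0.384% of reads were methylated in F0 and 0.513% in F2, and 0.129% of the 5906407 CHH cytosines of F2 had more than 20% methylated reads over all rams. At the CTNNA3 cytosine, F2 rams of the methionine line ranged from 0.0% to 90.6% (median 51.9%) and of the control line from 0.0% to 90.9% (median 0.0%). In F2, 8 rams, of which 1 was of the methionine line, had no methylated read. In F0 all 5 control sires were at 3.6% or less and 3 of 5 methionine sires were between 42.3% and 52.2%.

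At the CDH12 cytosine the order was the other way. Control F2 rams ranged from 3.7% to 87.1% (median 44.8%) and methionine rams from 0.0% to 100% (median 0.0%), with 9 of 10 methionine rams under 20% and ramF2_359.5T at 100% on 29 reads. In F1, the 5 methionine pools lay at 18.8% or less and the 5 control pools at 31.2% or more.

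At the STK32B cytosine, methionine F2 rams ranged from 36.8% to 100% (median 65.4%) and control rams from 0.0% to 53.3% (median 24.5%). Of the control rams, 5 were under 20%, and no methionine ram was. F2 levels fell into sets more than 20 points apart at CNTNAP2 (2 sets), DLG2 (3), CTNNA3 (3) and STK32B (2), and CDH12 left no such gap. In bisulfite reads an unmethylated cytosine and a C-to-T sequence difference cannot be told apart in these files.

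**Figure D5:**
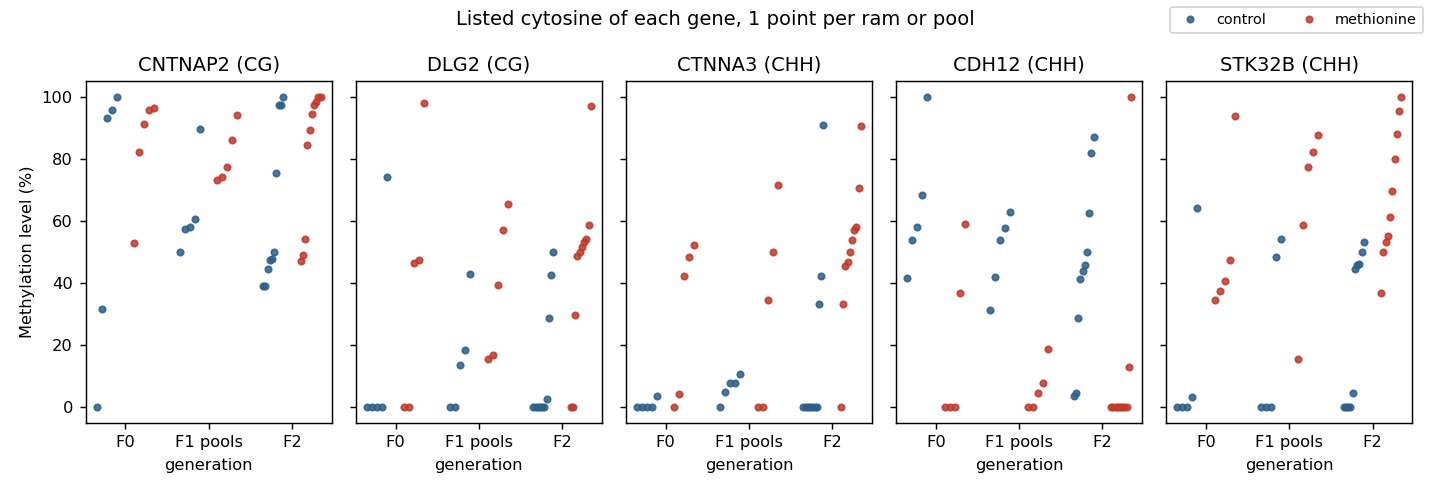
Methylation level in percent at the listed cytosine of 5 genes (context in parentheses), 1 point per F0 ram, F1 pool or F2 ram, by diet line. F2 levels of CTNNA3 gather at 0.0%, from 33.3% to 70.6% and above 90%. The F2 median of CDH12 is lower in the methionine line, unlike that of the other 4.

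The level at a listed cytosine was set against the TMM CPM of its gene in the F2 rams, within sets of at least 6 rams where levels fell apart by more than 20 points. In 9 such comparisons, 0 passed the permutation test after Benjamini-Hochberg adjustment (the smallest adjusted p was 0.451 for r and 0.202 for rho). In 2 of the 9, DLG2 and LOC114110160 in the lowest set, 8 rams were at 0.0% and 1 at 2.7%, so these could not pass and the count rests on the other 7. Ranges of level within a set are narrow, and no r over all 20 rams is given where levels fell into separate sets. The ram at 97.1% for the DLG2 cytosine entered no comparison, and its LOC114110160 level, 175 TMM CPM, was the highest. The smallest p was for CNTNAP2 in the 11 rams above 75%, with r = -0.49 and rho = -0.69 (permutation p = 0.107 and 0.0224, both before adjustment) and r = -0.50 without the 2 rams farthest from the median level. In the 9 rams near the middle it was r = -0.52 and rho = -0.58 (exact p = 0.152 and 0.110, r = -0.78 without the 2 farthest rams). For DLG2 r was 0.49 in the 10 middle rams (permutation p = 0.157) and -0.07 without the 2 rams farthest from the median level. For LOC114110160, which ran from 3.51 to 175 TMM CPM, it was -0.08 in the same rams (permutation p = 0.807).

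For CDH12, whose levels left no such gap, r was 0.30 over all 20 rams (permutation p = 0.201). For CTNNA3 it was -0.24 in 10 rams (permutation p = 0.513), and for STK32B it was 0.28 in 15 rams (permutation p = 0.309). The 8 CTNNA3 rams at 0.0% gave 4.31 to 26.2 TMM CPM, and the 10 in the middle 4.27 to 38.1. These sets overlapped over most of their range.

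The span of each gene was then taken without its listed cytosine. Spans came from the study's supplement for 5 genes, and for CNTNAP2 were set as 100 kb on each side of its listed cytosine. CTNNA3 held 332 CG cytosines with enough reads in F0 and 122 in F2, DLG2 261 and 74, CDH12 46 and 18, STK32B 41 and 20, CAP2 38 and 10, and the CNTNAP2 window 36 and 9.

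Spans differed in level far more than diet lines did. Mean CG levels of the groups ran from 71.1% to 95.5%. The CAP2 span was among the most methylated, at 92.5% ± 1.9 (SD, n = 5) in F0 methionine sires and 92.0% ± 1.7 in control sires. STK32B had 90.0% ± 3.7 and 91.6% ± 1.7, and CTNNA3 77.0% ± 3.1 and 77.3% ± 2.6. DLG2 was at 74.5% ± 1.9 and 75% ± 0.43, and the CNTNAP2 window at 71.1% ± 3.8 and 71.6% ± 4.6. CDH12, with 77.6% ± 2.2 and 79.8% ± 2.5, had the largest difference of the 6 in F0, at -2.16 points. The mean over every CG cytosine in the deposited tables was 74.2% in F0 and 70.7% in F2.

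Methionine minus control differences of the span means ran from -4.63 to 2.70 points over 18 comparisons of gene and generation, and 0 passed the permutation test after adjustment. Of the 18, 1 had an unadjusted p under 0.05. The CDH12 span in F1 pools had 75.2% ± 1.9 in the methionine line and 79.8% ± 2.1 in the control line (SD, n = 5 each; exact permutation p = 0.0238, adjusted p = 0.429). With 5 against 5 the smallest p the exact test allows is 0.00794. With consecutive sire numbers taken as pairs, all 5 pair differences of CDH12 in F1 were negative, from -6.16 to -2.38 points (exact sign-flip permutation p = 0.0625, the smallest that 5 pairs allow). In F2 the CDH12 span had 81.6% ± 3.3 in the methionine line and 80.6% ± 5.6 in the control line (SD, n = 10 each), the opposite direction in the means, although 4 of the 5 sire pairs were lower in the methionine line. In F2 the CTNNA3 span had 78.6% ± 3.0 in the methionine line and 76.1% ± 3.2 in the control line (SD, n = 10 each; permutation p = 0.0975, adjusted p = 0.800).

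Single cytosines of the spans were tested by a likelihood-ratio test on reads summed over each line. A cytosine was called where the lines differed by 20 points or more and the adjusted p did not exceed 0.01. Of the cytosines outside the study's TEI list, 24 of 754 were called in F0 (3.18%, against 1.82% of all CG cytosines). There were 11 of 723 called in F1 (1.52% against 1.0%) and 12 of 253 in F2 (4.74% against 2.19%). Leaving out 1 sample moved the counts to between 21 and 40 in F0 and between 8 and 20 in F1. With at least 20 reads in every sample, the share in F0 was below that of all CG cytosines (3 of 176, or 1.7%, against 1.99%). CTNNA3 held 18 of the 24 in F0, 6 of the 11 in F1 and 9 of the 12 in F2. Neighbouring cytosines share reads and rams, so these shares are a description. CAP2 had 0 called in F0, 1 in F1 and 0 in F2.

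Reads are not animals, and the test on summed reads takes no account of the spread between animals. By limma on the level of each sample, 0 CG cytosines were called in any generation (0.0% of 313527, 294661 and 122453). At an unadjusted p under 0.05, limma gave 27 of the 754 cytosines in F0 (3.58%, against 4.11% of all), 32 of 723 in F1 (4.43% against 4.82%) and 16 of 253 in F2 (6.32% against 2.96%).

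Outside the study's TEI list, 610 cytosines of these spans were tested in more than 1 generation. Of these, 11 were called in 2 generations (1.8%, against 0.469% of 247998 such CG cytosines in all). They lay 8 in CTNNA3, 2 in STK32B and 1 in DLG2. All 11 kept their direction, as did 93.1% of the 1162 called in more than 1 generation over all CG cytosines. F1 and F2 animals descend from the F0 rams, so generations are not independent. In CTNNA3, 3 cytosines within a short stretch of chromosome 25, at 24740236, 24740358 and 24740402 on the minus strand, were called in F0 and F2. The first had 63.0% of 200 reads in methionine sires and 23.7% of 190 in controls, and in F2 40.7% against 6.1%. In F1 it was at 36.2% against 23.7% and was not called. No F1 test was made at 24740358, which lacked reads there. The cytosine at 24709677 on the plus strand was likewise called in F0 (50.3% against 19.7%) and F2 (43.4% against 8.8%).

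The other 4 CTNNA3 cytosines were called in F0 and F1. The one at 24425836 had 32.4% methylated reads in methionine sires and 0.0% in 204 reads of controls, and in F1 32.4% against 4.5%. Those at 24339887, 24460960 and 24841753 were lower in the methionine line in both generations, by 23.3 to 44.7 points. In STK32B, 114219070 was higher by 31.7 points in F0 and 35.1 points in F1, and 114402215 was lower, with 46.4% against 80.5% in F0 and 45.5% against 83.8% in F1. In DLG2, the cytosine at 11300701 had 38.9% against 12.7% in F0 and 34.1% against 10.6% in F1. It lies close to the listed one at 11300458, on the same strand. By summed reads the listed one had 43.5% against 13.3% in F0 and 36.4% against 12.2% in F1. The repeated call at 11300701 is thus not independent of the study's choice.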

How the data were processed

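Semen RNA of 20 F2 rams and bisulfite-treated sperm DNA (20 F2 rams, 10 F1 pools and 10 F0 rams) were analysed. The authors deposited raw counts per gene (Trimmomatic, then STAR gene counts on Oar_rambouillet_v1.0) and counts of covering and methylated reads per cytosine (Trim Galore, Bismark with Bowtie2, methylKit), kept where every sample of a generation had at least 10 reads. The strand setting of the gene counts is not given in the sources used here. The 80 columns of unconverted reads and the CHG tables were not used.

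The diet comparison was fitted on all 13577 genes with at least 15 reads in more than 10 rams by edgeR 4.0.16 (TMM, quasi-likelihood test, Benjamini-Hochberg adjustment, threshold 0.05), with DESeq2 1.42.0 as an alternative. Levels are TMM CPM, with a pseudocount of 1 on the log2 scale. Correlations used two-sided permutation tests with 100000 resamples, exact below 10 rams. Cytosines were tested by likelihood ratio on summed reads, with limma 3.58.1 as an alternative. All scripts that test many features were checked on simulated data. Replicates are separate animals, but 2 F2 rams share each F0 sire. Named relatives are the 2 with the smallest p in each direction; named similar genes are the 3 with the highest rho for each of the 6. Members and lists were chosen with earlier results of these data known. An annotation of the build was not used here, so the gene spans come from the study's supplement, a change made after seeing the data. Labels say that the F0 rams were twin pairs without naming the pairs, so consecutive sire numbers served as pairs in alternatives for RNA and span means.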

Additional observations from a re-analysis of the deposited data

Results flagged for a closer look

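In 78 groups of 5 or 10 samples, 8 samples stood apart from the rest of their group by Dixon's ratio. Chance gives about 1 in 20 groups (3.9) only where groups are independent and values are spread normally. Groups here share animals, and levels at listed cytosines often gathered in separate sets. The 8 are thus a description, and whether they exceed chance cannot be told from 3.9. In RNA, CTNNA3 of control ram SpermRNA485C was at 31.4 TMM CPM, with the next control ram at 18.8. Ram SpermRNA485C also had the lowest leukocyte sum, 107 TMM CPM, and its part in this level was not tested.

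The other 7 were levels at listed cytosines, in 6 rams and 1 F1 pool. Control sire 12 was at 74.2% for DLG2, with 0.0% in the other 4 control sires. Control sire 4 was at 64.3% for STK32B, with the next at 3.4%, and methionine sire 3 was at 93.8%, with the next at 47.4%. Control sire 6 was at 3.6% for CTNNA3, with 0.0% in the other 4, a value that rests on 1 methylated read of 28. In the F0 control groups of DLG2 and CTNNA3 all other values were equal, so Dixon's ratio was 1 whatever the size of the gap. The F1 control pool of sire 10 was at 89.6% for CNTNAP2, with the next at 60.5%. Methionine F2 ram ramF2_359.5T was at 100% for CDH12, with the next at 13%. Control F2 ram ramF2_409.24C was at 90.9% for CTNNA3, with the next at 42.1%.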

How the results depend on the processing

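None of the 6 genes was called by diet under any alternative, and no gene was called among all genes tested. Fitted differences near 0 changed sign. CNTNAP2 was at -0.00015 without the 2 rams low in leukocyte markers, and CTNNA3 at 0.052 with the sire pair as a block. Leaving out 1 ram at a time, log2 differences ran from -0.069 to 0.195 for CNTNAP2, from -0.47 to -0.10 for DLG2, from -0.28 to 0.20 for CTNNA3, from -0.40 to 0.015 for CDH12, from -0.59 to 0.00126 for STK32B and from -0.013 to 0.27 for CAP2. The alternatives with library total and without low-leukocyte rams, the raw counts, the sire pairs for span means and the left-out samples of the methylation tests were chosen after seeing the data.

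Of the 6 genes, those called by r on raw counts fell from 6 to 0 with library total and from 6 to 4 with the leukocyte list. They fell from 6 to 3 with the squamous list and from 4 to 3 with the spermatid list. Calls by rho fell from 5 to 2 with the squamous list and stayed at 4 with the spermatid list. Those called with the spermatid list fell from 4 to 1 without rams SpermRNA382T and SpermRNA485C. By r, the 15 pairs of genes all passed under every alternative run except residuals on library total, where 13 did. By rho, 11 passed on those residuals and 11 on residuals after regression on the 3 marker lists, and 15 under the others. On both kinds of residuals the permutation took no account of the terms regressed out, which makes p too small.

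Span means changed sign with at least 20 reads in every sample for CNTNAP2 in F0 (0.27 points) and F1 (1.92 points) and for CTNNA3 in F0 (1.13 points), and read-weighted for CNTNAP2 (0.50 points) and CTNNA3 (-0.29 points) in F1. With sire pairs as a block 0 of 18 means passed, as 5 pairs cannot give an exact p under 0.0625. Without some sample, 10 of 18 means turned sign. The CDH12 difference in F1 stayed between -5.41 and -3.97 points, and that of CTNNA3 in F2 between 1.64 and 2.88.

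With at least 20 reads in every sample, called cytosines numbered 3 of 176 in F0 (1.7%, against 1.99% of all CG cytosines) and 2 of 152 in F1 (1.32%, against 1.2%), and in F2 no cytosine of the spans had such depth, so no value could be given. By limma 0, 0 and 0 were called in F0, F1 and F2. With a difference of at least 25 points F1 gave 7 of 723 (0.968%, against 0.6%). Leaving out 1 sample gave 21 to 40 calls in F0 (40 without control sire 6, or 5.31%, against 2.34% of all CG cytosines), 8 to 20 in F1 (20 without the methionine pool of sire 23, or 2.77% against 0.993%, and 19 without the control pool of sire 6, or 2.63% against 1.07%) and 10 to 14 in F2. No ram had more than 166 reads of any of the 6 genes, and counts this low widen the error of each level.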
